A study of Mus musculus with 16 samples.

Results

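The comparison described here is that of diet without drug in mouse left ventricle: 4 libraries of mice on a high fat, high sucrose diet (HFHS) against 4 of mice on a low fat control diet (CD), 8 of the 16 libraries of the series. Members were taken by their group label alone, and all 15841 genes that passed a filter on low counts were tested. The mice were male C57BL/6J, 8 weeks old when the feeding began, and ate either diet freely for 4 months. The 8 libraries come from mice that received no drug. The other 8 come from mice on the same diets with ertugliflozin, which blocks SGLT2, the transporter that recovers glucose in the kidney, given in the food at 0.5 mg per g, and are used here to set the diet effect beside its value under the drug. Each group stands for 4 of 12 animals, picked by the submitters as representative, so p-values measure the spread between those animals. Bulk ventricle holds many cell types, and fewer cells of a type and less RNA per cell cannot be told apart.

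The adult heart draws most of its ATP from fatty acids. These enter the cell through CD36, are bound by FABP3, are activated to acyl-CoA and pass into mitochondria on carnitine through CPT1, the translocase SLC25A20 and CPT2, where beta-oxidation shortens them. A part is stored as triglyceride in lipid droplets. The nuclear receptor PPARA, which binds fatty acids, turns on many genes of these steps, and also PDK4, a kinase that holds back the oxidation of pyruvate and so of glucose.

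The deposited counts summed to 15897779 to 18701291 per CD library and 14637669 to 18745934 per HFHS library. All levels below are CPM, counts scaled to library size with TMM factors, which are not divided by gene length, so levels are compared between libraries and not between genes. Differences are log2 fold changes of HFHS minus CD with their SE, tested by edgeR's quasi-likelihood test with Benjamini-Hochberg adjustment over all 15841 genes, and "rose", "fell" and "changed" mark an adjusted p under 0.05. The defining transcripts of cardiomyocytes were present at 86952 to 102170 CPM in sum. By their sums, valve transcripts stood higher in every CD library than in any HFHS library, while atrial transcripts overlapped between the diets. The 17 valve and cartilage markers summed to 109, 293, 258 and 71.0 CPM on CD and to 44.9, 50.7, 38.0 and 60.4 CPM on HFHS, and the 16 atrial markers to 2176, 1384, 1243 and 971 CPM on CD and 1196, 1202, 1236 and 1417 CPM on HFHS. CD replicates 2 and 3 thus had the highest valve sums and CD replicate 1 the highest atrial sum. The part of these transcripts in the results below was not tested beyond the values given.

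Of the 15841 genes 327 changed (2.06%), 229 of them rising (1.45%) and 98 falling (0.619%), and 2608 had an unadjusted p under 0.05. In 301 of the 327 all 4 HFHS libraries lay on one side of all 4 CD libraries, which held for 8.33% of all genes tested. The changes were small: the median size among the 327 was 0.35 on the log2 scale, with quartiles of 0.26 and 0.51, and 26 passed 2-fold. Single libraries moved the number: 846 genes passed without HFHS replicate 1, 133, 176 and 186 without HFHS replicates 2, 3 and 4, and 189, 150 and 191 without CD replicates 1, 2 and 3. With valve and atrial marker scores as covariates 9 genes passed: Chrna2, Acot2, Tshz1, Btnl9, Bckdhb, Ckm, Adam23, Ybx2 and St6gal1. The other genes named below as risen or fallen did not pass in that fit. In a fit of only these 8 libraries 136 genes passed. Mgll, Plin3, Cat, Grk5, S100a1 and Fgf9 did not pass there, though leaving out a single library did not end their calls. Some of the genes whose calls are said below to end without a single library did not pass there either. With CD replicates 2 and 3 left out 97 genes passed, and 72 of these belonged to the 327.

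**Figure D1:**
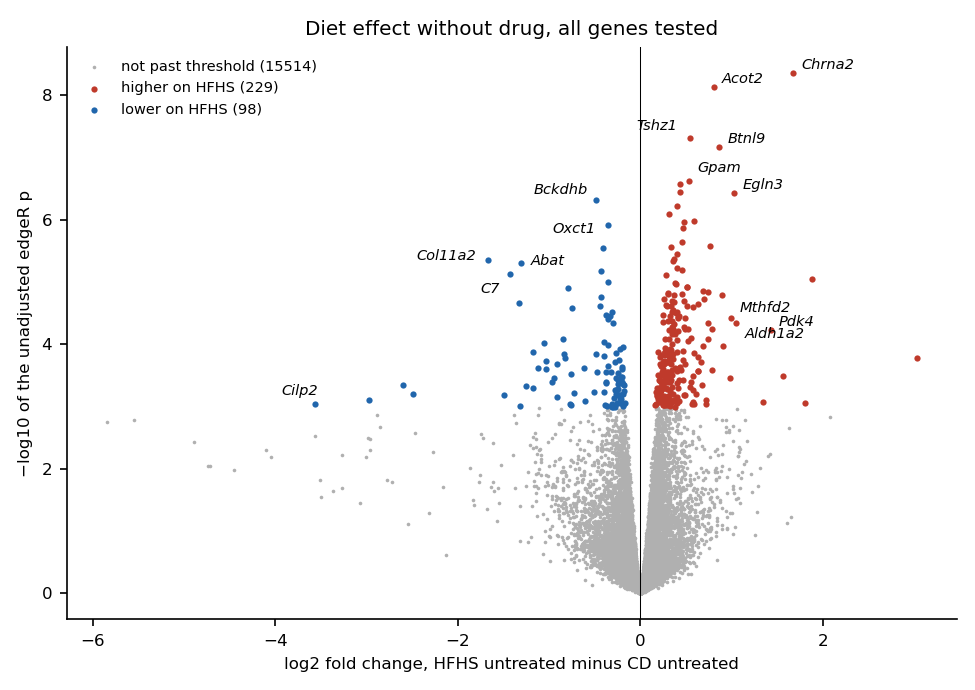
Log2 fold change of HFHS untreated minus CD untreated (horizontal axis) against −log10 of the unadjusted edgeR p (vertical axis) for all 15841 genes tested, with 229 risen genes in red, 98 fallen genes in blue and the rest in grey. Chrna2 and Acot2 have the smallest p, and Cilp2 is the labelled gene farthest to the left, at −3.57.

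The acyl-CoA thioesterases, which split acyl-CoA into free fatty acid and coenzyme A, held the gene of the second smallest p of all. Acot2, the mitochondrial form, was at 113, 125, 113 and 124 CPM on CD and 168, 213, 217 and 229.9 CPM on HFHS, every HFHS library above every CD library, a rise of 0.80 ± 0.08 (adjusted p = 5.80e-05). Acot1, the cytosolic form, was at 22.3, 26.3, 25.1 and 27.2 CPM on CD and 30.8, 44.4, 53.6 and 60.8 CPM on HFHS and rose by 0.91 ± 0.17 (adjusted p = 0.0161), with no overlap between the groups. The 2 genes are neighbours on chromosome 12 of GRCm38, at 83987861 to 83993873 (Acot2, ENSMUSG00000021226) and 84009490 to 84018371 (Acot1, ENSMUSG00000072949). Their longest transcripts in GENCODE M21 matched at 93.8% of 889 aligned bases, so reads could be split between them in counting and the value of each is uncertain. Of the 10 thioesterases tested, these 2 rose and none fell (median log2 fold change −0.07, against −0.0018 over all genes). Of the 10, 1 rose without CD replicates 2 and 3 and 3 rose without HFHS replicate 1. The call of Acot1 ended without CD replicate 1.

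Since these genes moved together with genes of uptake and storage, 4 of their promoters are shown, 5′ to 3′ on the gene's strand. Each runs from 250 bases before to 50 after a RefSeq start site in GRCm38.p6. Where a gene had several entries, the first was taken. Capitals mark AGGTCA on either strand (as TGACCT on the opposite one), the core half-site to which nuclear receptors such as PPARs bind.
Acot2 (chr12:83987611-83987910, plus strand): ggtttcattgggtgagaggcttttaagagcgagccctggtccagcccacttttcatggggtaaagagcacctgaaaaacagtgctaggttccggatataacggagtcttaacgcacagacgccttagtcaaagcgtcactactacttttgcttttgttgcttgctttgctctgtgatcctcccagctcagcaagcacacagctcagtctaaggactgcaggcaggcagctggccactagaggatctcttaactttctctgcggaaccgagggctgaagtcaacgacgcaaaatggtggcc
Acot1 (chr12:84009252-84009551, plus strand): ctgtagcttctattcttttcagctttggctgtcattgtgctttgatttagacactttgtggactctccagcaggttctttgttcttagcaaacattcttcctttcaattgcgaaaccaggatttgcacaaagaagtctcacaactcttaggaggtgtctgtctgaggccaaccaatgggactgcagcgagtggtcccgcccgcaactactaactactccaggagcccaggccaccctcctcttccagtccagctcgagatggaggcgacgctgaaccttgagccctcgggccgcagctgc
Plin2 (chr4:86670010-86670309, minus strand): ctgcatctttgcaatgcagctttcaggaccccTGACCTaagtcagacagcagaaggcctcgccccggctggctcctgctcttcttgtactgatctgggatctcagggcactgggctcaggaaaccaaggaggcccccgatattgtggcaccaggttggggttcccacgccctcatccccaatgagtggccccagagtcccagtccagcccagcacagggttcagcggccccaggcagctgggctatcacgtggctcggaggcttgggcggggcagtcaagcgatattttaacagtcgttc
Cd36 (chr5:17835847-17836146, minus strand): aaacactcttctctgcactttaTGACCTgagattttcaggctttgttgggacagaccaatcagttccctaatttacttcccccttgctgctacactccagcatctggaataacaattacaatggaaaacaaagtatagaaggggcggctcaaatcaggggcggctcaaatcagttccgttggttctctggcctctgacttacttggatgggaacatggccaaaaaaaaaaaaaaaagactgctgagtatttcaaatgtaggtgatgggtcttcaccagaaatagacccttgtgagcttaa
The half-site begins 218 bases before the start in Plin2 and 228 bases before it in Cd36, and no copy lies in the windows of Acot2 and Acot1. The Cd36 start used lies inside the gene, whose 5′ end in GENCODE M21 is at 17888801. Of the 26 genes of fatty acid uptake, oxidation, hydrolysis and storage that rose, 21 had an entry in the table, with 25 windows. The half-site stood in 6 of these 25 windows, which belong to 5 genes, and in 16.3% of all 32851 windows, which belong to 4900 of 27025 genes. A direct repeat of the half-site spaced by 1 base was in 0.0396% of all windows and in none of theirs. A match is a run of letters and not a measured binding site.

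Genes of fatty acid uptake rose at 3 of the 16 tested members of their list, with none falling (median log2 fold change 0.18), and at 5 without HFHS replicate 1. Without CD replicates 2 and 3, 2 of the 16 rose, and Fabp3 did not pass. Cd36, the main fatty acid transporter of the heart, was at 2589.9, 2534, 2432 and 2887 CPM on CD and 3654, 3466, 3525 and 3183 CPM on HFHS, a rise of 0.41 ± 0.06 (adjusted p = 0.000935). Dbi, which binds acyl-CoA in the cytosol, was at 81.8, 82.7, 74.2 and 76.8 CPM on CD and 109, 102, 112 and 93.5 CPM on HFHS and rose by 0.40 ± 0.06. All HFHS libraries stood above all CD libraries for both. Fabp3, the fatty acid binding protein of heart muscle, was at 1092, 1124, 1080.5 and 1124 CPM on CD and 1322, 1399, 1366 and 1272 CPM on HFHS and rose by 0.28 ± 0.05 (adjusted p = 0.00689). Its processed copy Fabp3-ps1, named after its values were seen, was counted at a like level (1250.2, 1314, 1239.7 and 1299 CPM on CD and 1650.2, 1669.5, 1609 and 1490.02 CPM on HFHS). The copy's transcript matched that of Fabp3 at 99.3% of 402 bases, so the counts of both are uncertain. Angptl4, a secreted inhibitor of lipoprotein lipase and a target of PPARs, was at 6.98, 5.998, 5.93 and 14.7 CPM on CD and 21.03, 36.5, 52.99 and 31.4 CPM on HFHS. The lowest HFHS library stood above the highest CD library, and the difference of 2.08 ± 0.51 did not pass (adjusted p = 0.0599).

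Mitochondrial fatty acid oxidation was the list with the most risen members: 12 of 24 rose and none fell, against 1.45% of all genes rising, and in 16 of 24 all HFHS libraries stood above all CD libraries, against 4.11% of all genes (median 0.23). Of the other 12, 3 were lower on HFHS, and Echs1, an enoyl-CoA hydratase of beta-oxidation, had all HFHS libraries below all CD libraries and did not pass (−0.18 ± 0.05, adjusted p = 0.0997). At the carnitine shuttle Cpt1a, which makes acylcarnitine at the outer membrane, was at 64.1, 60.5, 64.5 and 73.2 CPM on CD and 80.8, 85.4, 91.2 and 90.6 CPM on HFHS and rose by 0.41 ± 0.08 (adjusted p = 0.00842). The carrier Slc25a20 rose by 0.30 ± 0.07, and Crat, which makes acetylcarnitine, by 0.30 ± 0.06. Cpt2 (0.30) and the carnitine transporter Slc22a5 (0.24) rose as well. Mlycd, which breaks down malonyl-CoA, the inhibitor of CPT1, was at 142, 131, 133 and 147 CPM on CD and 157, 170.4, 162 and 173 CPM on HFHS, a rise of 0.26 ± 0.06.

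Within the mitochondrion, enzymes for unsaturated fatty acids had the smallest p of the list. Decr1, the dienoyl-CoA reductase, was at 658, 592, 542 and 566 CPM on CD and 825, 802, 879 and 773 CPM on HFHS, a rise of 0.47 ± 0.07 (adjusted p = 0.00132). Ech1, a dienoyl-CoA isomerase, was at 1571, 1483, 1356 and 1491 CPM on CD and 2026, 1823, 2140.2 and 1829.8 CPM on HFHS, a rise of 0.41 ± 0.06. No HFHS library of either reached down to a CD library. Hadha, the alpha subunit of the trifunctional protein of long-chain beta-oxidation, was at 2306, 2197, 2043 and 2192 CPM on CD and 2436, 2568, 2879 and 2671 CPM on HFHS and rose by 0.27 ± 0.06. Etfdh, which hands electrons from beta-oxidation to ubiquinone, was at 982, 959.7, 912 and 975 CPM on CD and 1117, 1179.6, 1224 and 1148 CPM on HFHS and rose by 0.29 ± 0.05. The thiolase Acaa2 (0.29) and the short-chain dehydrogenase Acads (0.25) completed the 12. For Cpt2, Slc22a5, Acaa2 and Acads the calls were not followed gene by gene when libraries were left out. Without CD replicates 2 and 3 the list held 2 risen genes of 24 (median 0.16), and without HFHS replicate 1 it held 15 (median 0.27). Left out singly, libraries ended the calls of Slc25a20 without any 1 of CD replicates 2 and 3 and HFHS replicates 2, 3 and 4; Crat without any 1 of CD replicates 2 and 3 and HFHS replicates 3 and 4; Mlycd without any 1 of CD replicates 2 and 3 and HFHS replicates 2 and 4; Hadha without any 1 of CD replicates 2 and 3 and HFHS replicate 3.

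Peroxisomes shorten very long fatty acids and yield hydrogen peroxide. Over 17 tested genes of peroxisomal oxidation the median was 0.03. Pex11a, which drives the division of peroxisomes, was at 34.1, 31.95, 28.8 and 29.4 CPM on CD and 37.8, 49.4, 44.1 and 42.5 CPM on HFHS, a rise of 0.49 ± 0.09 (adjusted p = 0.00842). Its call ended without CD replicates 2 and 3. Cat, the catalase that removes hydrogen peroxide, was the single gene of 29 on the list of uncoupling and antioxidant defence that changed, at 293, 337, 294 and 311 CPM on CD and 347, 441, 391 and 392 CPM on HFHS, a rise of 0.35 ± 0.07. Ephx2, the soluble epoxide hydrolase that acts on epoxides of fatty acids, was at 328, 316, 293 and 313 CPM on CD and 406, 434, 461 and 422 CPM on HFHS and rose by 0.46 ± 0.07 (adjusted p = 0.00142). Hsdl2, a dehydrogenase-like protein, was at 408, 403, 393 and 415 CPM on CD and 491, 499, 522 and 497 CPM on HFHS and rose by 0.31 ± 0.04 (adjusted p = 0.00116). For Cat, Ephx2 and Hsdl2 the groups did not overlap.

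Among 18 lipid droplet genes 4 rose and 1 fell (median 0.07). Plin2, which coats droplets, was at 75.3, 80.6, 79.8 and 77.04 CPM on CD and 97.8, 114, 108 and 102 CPM on HFHS, a rise of 0.43 ± 0.06 (adjusted p = 0.000692). Plin5, the perilipin of oxidative tissue that sits between droplet and mitochondrion, was at 160.3, 162, 156 and 191 CPM on CD and 184, 219.8, 214 and 243 CPM on HFHS and rose by 0.36 ± 0.08, with CD replicate 4 overlapping the lowest HFHS library. Cidea, a droplet protein, was at 31.3, 30.6, 29.98 and 32.6 CPM on CD and 34.6, 43.5, 42.4 and 39.9 CPM on HFHS and rose by 0.37 ± 0.07. Mgll, the lipase of the last step of triglyceride breakdown, was at 188, 205, 223 and 259 CPM on CD and 362, 300.1, 311 and 278 CPM on HFHS and rose by 0.52 ± 0.09. Plin3, another perilipin, went the other way, at 243, 233, 229.8 and 286 CPM on CD and 177, 212, 198 and 179.7 CPM on HFHS, a fall with a log2 fold change of −0.37 ± 0.07 (adjusted p = 0.00822). Without CD replicates 2 and 3 the list held 1 risen and 1 fallen gene. The call of Plin5 ended without any 1 of CD replicates 1, 2 and 3 and HFHS replicates 2 and 4.

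Of 15 genes of triglyceride synthesis 3 rose and none fell (median −0.02), all acyltransferases. Gpam, the mitochondrial enzyme of the first step, was at 248, 257, 241 and 272 CPM on CD and 319.97, 411, 373 and 370.04 CPM on HFHS, a rise of 0.53 ± 0.07 (adjusted p = 0.000692). Agpat3 was at 272, 248, 247 and 262 CPM on CD and 290.03, 318, 365 and 376 CPM on HFHS (log2 fold change 0.39 ± 0.07), and Gpat3, the form of the first-step enzyme in the endoplasmic reticulum, at 24.7, 24.4, 24.2 and 20.5 CPM on CD and 27.7, 30.4, 32.2 and 33.7 CPM on HFHS (0.40 ± 0.09). In each the groups did not overlap. Of 23 genes of fatty acid synthesis, elongation and desaturation 1 rose, Me1, the malic enzyme that makes NADPH, by 0.34 ± 0.07 (adjusted p = 0.0221). Of 30 genes of cholesterol synthesis, uptake and efflux none passed with edgeR (4 at an unadjusted p under 0.05, 1 with DESeq2, 1 with limma-voom). Of the 15 genes of triglyceride synthesis 1 rose without CD replicates 2 and 3, and none of the 23 did, while 3 of the 23 rose without HFHS replicate 1. Some calls rested on single libraries and ended for Gpat3 without any 1 of CD replicates 2 and 4 and HFHS replicates 2, 3 and 4; Me1 without any 1 of CD replicates 3 and 4 and HFHS replicates 2, 3 and 4.

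Genes of glucose use moved in both directions. Of 14 genes of pyruvate dehydrogenase and its regulators 1 rose, Pdk4 (ENSMUSG00000019577), at 426, 553, 469.8 and 647 CPM on CD and 1000.1, 1864, 1141 and 1632 CPM on HFHS, a rise of 1.43 ± 0.24 (adjusted p = 0.0106); the groups did not overlap, and HFHS replicates 2 and 4 were the highest. Of 31 genes of glucose uptake, glycolysis and glycogen 1 rose and 3 fell (median −0.07, with 0.619% of all genes falling). Pfkfb2, the heart form of the enzyme that makes the activator of phosphofructokinase, was at 109.5, 95.97, 98.4 and 114 CPM on CD and 80.9, 78.95, 80.9 and 69.6 CPM on HFHS, a fall with a log2 fold change of −0.43 ± 0.08 (adjusted p = 0.00619). Eno3, the muscle enolase, was at 1493, 1332, 1406 and 1459 CPM on CD and 1154, 972, 1168 and 1166 CPM on HFHS (−0.35 ± 0.07), and Ldhb, the lactate dehydrogenase subunit of heart, at 1273, 1234, 1206 and 1398 CPM on CD and 1097, 1061, 1119.7 and 1067 CPM on HFHS (−0.23 ± 0.05). Both fell with no overlap between groups. Pfkl, the liver form of phosphofructokinase, rose by 0.33 ± 0.07. Slc2a4, the insulin-responsive glucose transporter, was at 441, 409, 419.9 and 495 CPM on CD and 332, 381, 396 and 397 CPM on HFHS, all HFHS libraries below all CD libraries, and did not pass (−0.23 ± 0.07, adjusted p = 0.103). Slc2a1 (−0.38 ± 0.14, adjusted p = 0.173), Slc5a1, the gene of SGLT1 (−1.09 ± 0.35, adjusted p = 0.114), and the glucose-responsive gene Txnip (0.42 ± 0.44, adjusted p = 0.687) did not pass either. Pdk4 did not pass without CD replicates 2 and 3 (log2 fold change 1.39, adjusted p = 0.0972), where none of the 31 genes rose and 3 fell; without HFHS replicate 1, 2 of the 14 genes rose and 2 fell and 2 of the 31 rose. Calls that ended when 1 library was left out were those of Ldhb without any 1 of CD replicate 4 and HFHS replicates 2 and 4; Pfkl without any 1 of CD replicates 1, 2 and 3 and HFHS replicates 2, 3 and 4.

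**Figure D2:**
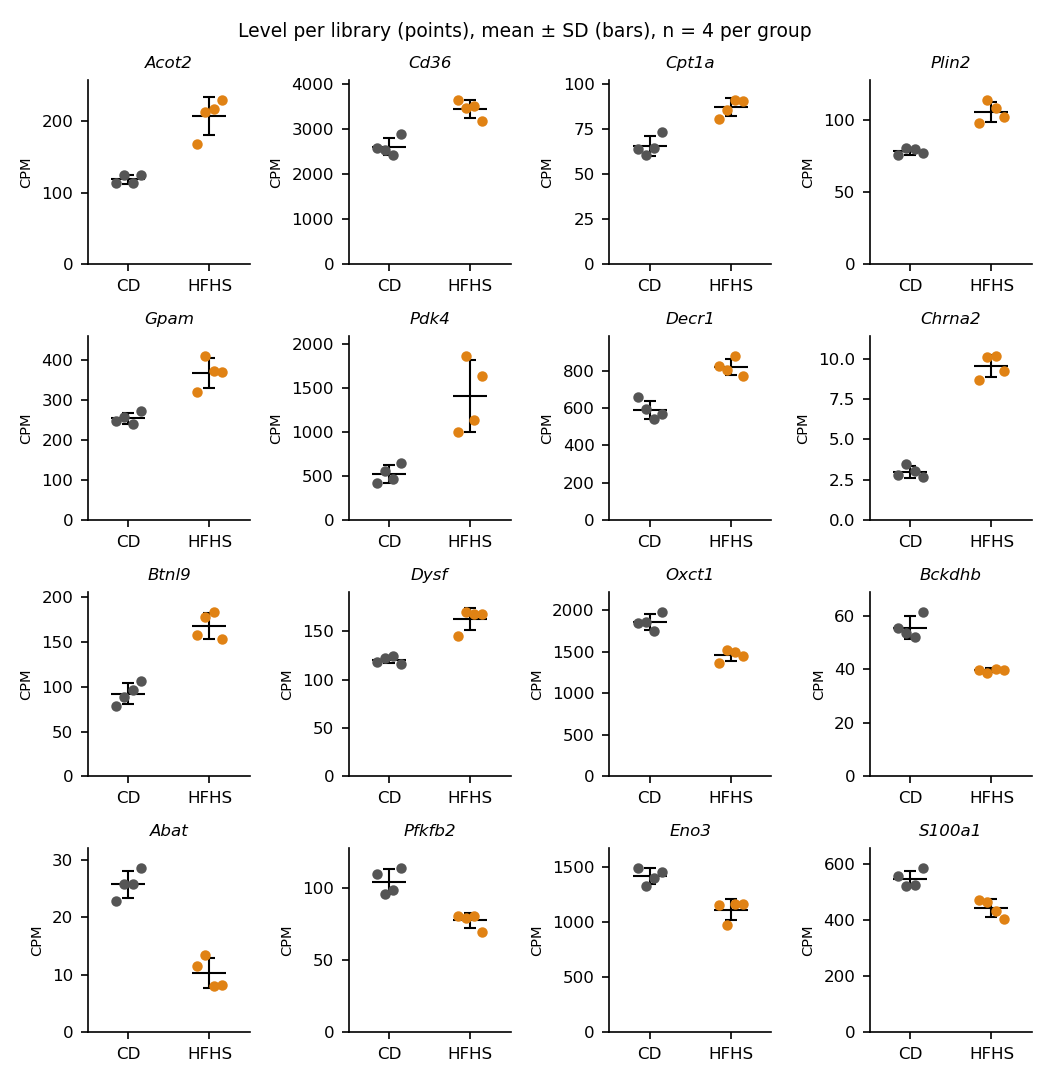
CPM of 16 genes in each CD and HFHS library without drug (points), with the mean and SD of 4 libraries (bars) and vertical axes from 0. The first 10 rose and have no HFHS point at or below a CD point, and the last 6, Oxct1, Bckdhb, Abat, Pfkfb2, Eno3 and S100a1, fell and have none at or above one.

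Genes of ketone body use moved in both directions. Oxct1, which commits ketone bodies to oxidation, was at 1844, 1864, 1753 and 1979 CPM on CD and 1369, 1522, 1496 and 1446 CPM on HFHS, with no overlap, a fall with a log2 fold change of −0.35 ± 0.05 (adjusted p = 0.00138). Slc16a7, a transporter of pyruvate and other monocarboxylates, was at 14.3, 14.9, 15.1 and 16.8 CPM on CD and 7.38, 6.51, 10.7 and 10.1 CPM on HFHS and fell (−0.83 ± 0.17). Acat1, a thiolase of ketone and isoleucine breakdown, rose by 0.22 ± 0.05. Bdh1, which interconverts the ketone bodies, ran from 73.5 to 216 CPM on HFHS and from 124 to 225 CPM on CD and did not pass (−0.46 ± 0.29, adjusted p = 0.465). Left out singly, libraries ended the calls of Slc16a7 without HFHS replicate 2; Acat1 without any 1 of CD replicates 2 and 3 and HFHS replicate 3.

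Among 23 genes for the breakdown of branched-chain amino acids 2 fell and none rose (median −0.11). Bckdhb, part of the enzyme complex at the committed step of that path, was at 55.6, 53.6, 52.1 and 61.5 CPM on CD and 39.95, 38.6, 40.3 and 39.9 CPM on HFHS, a fall with a log2 fold change of −0.49 ± 0.07 (adjusted p = 0.000852), and the 4 HFHS libraries lay close together. Acadsb, the dehydrogenase of short branched acyl-CoA, fell (−0.22 ± 0.05, adjusted p = 0.0295). Outside that list Abat, the transaminase that breaks down GABA, was at 22.8, 25.8, 25.7 and 28.5 CPM on CD and 11.5, 13.4, 8.07 and 8.29 CPM on HFHS, a fall with a log2 fold change of −1.31 ± 0.19 (adjusted p = 0.0033). Prodh, the first enzyme of proline breakdown, was at 29.4, 26.8, 26.7 and 36.7 CPM on CD and 19.8, 19.4, 17.97 and 13.8 CPM on HFHS and fell (−0.75 ± 0.13). In both every HFHS library was below every CD library. The call of Acadsb ended without any 1 of CD replicates 1, 2 and 4 and HFHS replicates 2 and 4.

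Serine and one-carbon genes rose at 2 of 26 tested members, and none fell (median 0.17). Mthfd2, the mitochondrial folate enzyme, was at 3.996, 5.998, 5.52 and 5.69 CPM on CD and 8.51, 11.7, 12.8 and 9.57 CPM on HFHS, a rise of 1.00 ± 0.18 (adjusted p = 0.00844). Psat1, a transaminase of serine synthesis, was at 4.57, 4.53, 4.42 and 3.57 CPM on CD and 7.32, 7.31, 5.83 and 5.99 CPM on HFHS, a rise of 0.63 ± 0.13 (adjusted p = 0.0196). Egln3, an oxygen-dependent enzyme that marks hypoxia-inducible factors for breakdown, was at 91.2, 88.6, 94.8 and 107 CPM on CD and 149, 221, 229 and 177 CPM on HFHS and rose by 1.03 ± 0.12 (adjusted p = 0.000745), the 1 gene of 20 on the hypoxia list that passed. Aldh1a2, an enzyme of retinoic acid synthesis, was at 4.57, 6.87, 3.85 and 3.24 CPM on CD and 10.2, 10.8, 7.51 and 9.93 CPM on HFHS and rose by 1.05 ± 0.20 (adjusted p = 0.00931), with no overlap between groups, the 1 of 12 retinoid genes that passed. The epicardium and mesothelium also express Aldh1a2, and the sum of 12 mesothelial and epicardial markers was 17.6 to 19.1 CPM on CD and 21.9 to 30.9 CPM on HFHS, with no overlap; their part in the rise was not tested. Without CD replicates 2 and 3 neither Mthfd2 nor Psat1 passed, and the 1 serine or one-carbon gene that rose there was another. Without HFHS replicate 1, 4 serine and one-carbon genes, 3 hypoxia genes and 2 retinoid genes rose and 1 retinoid gene fell. Psat1 no longer passed without any 1 of CD replicate 4 and HFHS replicate 2.

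In the lists of the respiratory chain and the TCA cycle no gene passed. The 74 subunits of the respiratory chain and ATP synthase were tested with edgeR (22 at an unadjusted p under 0.05, 6 with DESeq2, 6 with limma-voom). Their median was −0.09, 71 of 74 were lower on HFHS, and in 9 all HFHS libraries lay below all CD libraries, against 4.22% of all genes. Ndufb9 of complex I was at 535, 504, 494 and 538 CPM on CD and 478, 426, 474 and 447 CPM on HFHS (−0.18 ± 0.05, adjusted p = 0.0641). With HFHS replicate 1 left out 14 of the 74 fell (median −0.11). Of 19 genes of the TCA cycle none passed (median −0.06; 1 at an unadjusted p under 0.05, 1 with DESeq2, 0 with limma-voom), and of 43 cytosolic ribosomal proteins 1 fell, Rpl18 (−0.25 ± 0.06), with 38 of 43 lower (median −0.07). Leaving out HFHS replicate 1 gave 9 fallen ribosomal genes (median −0.15) and 1 risen TCA cycle gene, and leaving out CD replicates 2 and 3 gave no fallen ribosomal gene and 1 fallen TCA cycle gene. These genes are short, with a median exon length of 1631 bases for the respiratory chain and 1840 for ribosomal proteins. Over all genes the median log2 fold change was −0.05 in the shortest quartile of exon length and 0.04 in the longest, and its part in these medians was not tested. The call of Rpl18 ended without any 1 of CD replicates 1, 2 and 4 and HFHS replicates 2, 3 and 4.

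Over 21 PPAR, ERR and PGC-1 regulators, factors that control these genes, the median was 0.09. The coactivator Ncoa2, at 84.03, 76.3, 81.6 and 82.5 CPM on CD and 86.8, 94.7, 99.2 and 99.9 CPM on HFHS, rose (0.23 ± 0.06, adjusted p = 0.0366). Ppara (−0.15 ± 0.11, adjusted p = 0.533) and Ppargc1a, its coactivator (−0.17 ± 0.10, adjusted p = 0.426), did not pass, nor did Ucp3, an uncoupling protein homologue of muscle (1.07 ± 0.44, adjusted p = 0.244). Of 35 genes of insulin and IGF signalling none passed with edgeR (11 at an unadjusted p under 0.05, 1 with DESeq2, 1 with limma-voom), and 3 rose without HFHS replicate 1. Ncoa2 no longer passed without any 1 of CD replicates 1, 2, 3 and 4 and HFHS replicates 2, 3 and 4.

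**Figure D3:**
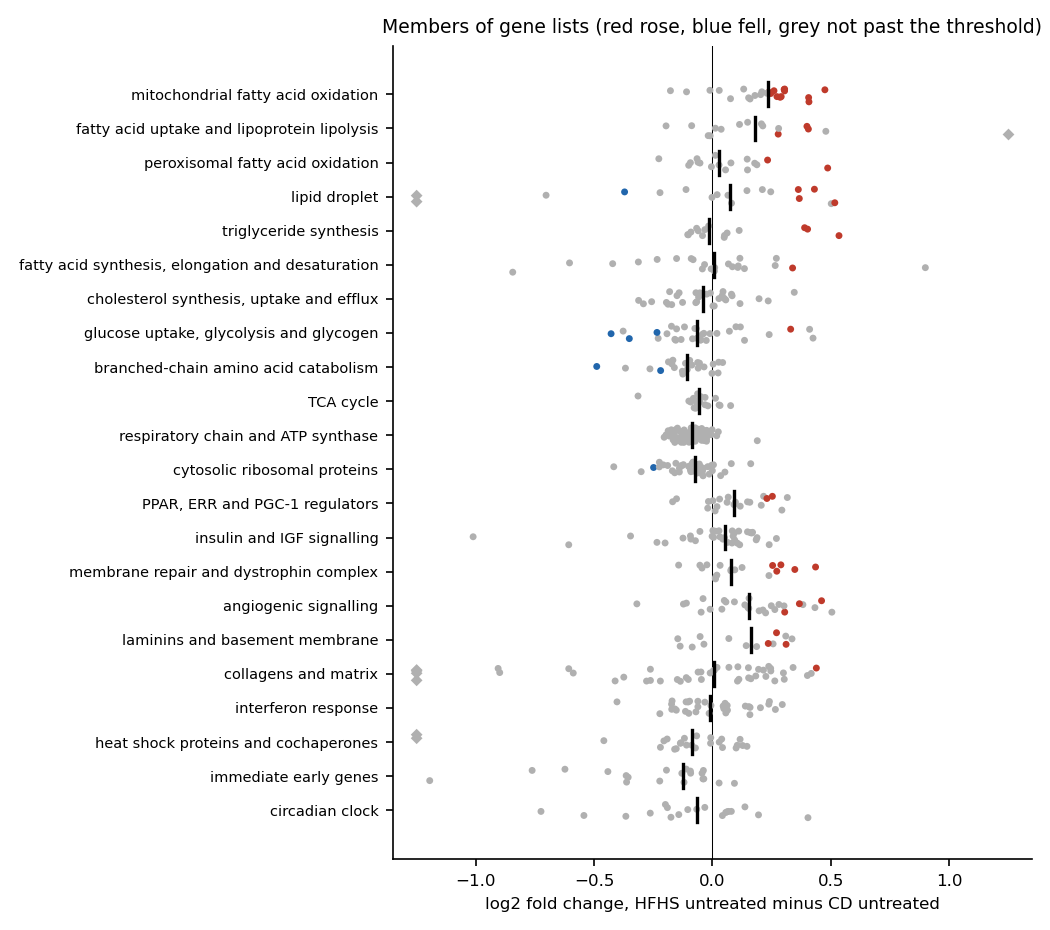
Log2 fold change, HFHS untreated minus CD untreated, of each tested member of 22 gene lists (points, red where risen, blue where fallen, grey where not past the threshold), with the list median (bar) and diamonds at the axis limits for members beyond them. Fatty acid oxidation sits to the right with 12 of 24 risen, and the respiratory chain slightly to the left with none of 74 past the threshold.

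Among genes of blood vessels some rose and none of the list fell. Of 27 angiogenic genes 3 rose (median 0.15): Kdr, the main endothelial receptor for VEGF, at 373, 339, 344 and 356 CPM on CD and 476, 502, 515 and 452 CPM on HFHS (0.46 ± 0.07, adjusted p = 0.00386); the growth factor Pdgfb, which draws pericytes to vessels (0.37 ± 0.06, adjusted p = 0.006); and the co-receptor Nrp1 (0.31 ± 0.08). Cdh5, the cadherin of endothelial junctions, was at 278, 261, 287 and 289 CPM on CD and 379, 378, 335 and 325 CPM on HFHS and rose by 0.35 ± 0.07. Btnl9, a butyrophilin-like protein, was at 78.5, 88.99, 96.4 and 106 CPM on CD and 158, 178, 184 and 154 CPM on HFHS and rose by 0.86 ± 0.10 (adjusted p = 0.00027). Cxcl12, a chemokine, rose by 0.33 ± 0.07. Of 18 endothelial markers 2 rose, and 17 were higher on HFHS (median 0.19); their sum was 2662 to 3096 CPM on CD and 2827 to 3505 CPM on HFHS, so the groups overlapped in it. None of the 27 angiogenic genes and none of the 18 endothelial markers passed without CD replicates 2 and 3. Without HFHS replicate 1, 2 endothelial markers rose and 1 fell (median 0.12). No longer past the threshold with 1 library fewer were Nrp1 without any 1 of CD replicates 2, 3 and 4 and HFHS replicates 2 and 3; Cdh5 without any 1 of CD replicate 2 and HFHS replicate 2; Cxcl12 without CD replicate 1.

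The basement membrane, the sheet on which endothelium and muscle cells rest, rose at 3 of 14 genes and fell at none (median 0.16). The risen members were the proteoglycan core Hspg2, at 778, 719, 802 and 692 CPM on CD and 847, 947, 947 and 969 CPM on HFHS (0.31 ± 0.06, adjusted p = 0.0136), the laminin chain Lamc1, at 277, 269, 280.1 and 261 CPM on CD and 314, 331, 356 and 311 CPM on HFHS (0.27 ± 0.06), and the linker Nid1 (0.24 ± 0.06). Of 46 collagens and matrix genes 1 rose, the basement membrane collagen Col4a2, at 448, 469.97, 541 and 512 CPM on CD and 583, 763, 675 and 650.3 CPM on HFHS (0.44 ± 0.09, adjusted p = 0.0241). For Hspg2, Lamc1 and Col4a2 all HFHS libraries stood above all CD libraries. Of the 14 genes 1 rose without CD replicates 2 and 3 and 5 without HFHS replicate 1, which also left 2 of the 46 risen. Some calls rested on single libraries and ended for Hspg2 without CD replicate 2; Lamc1 without any 1 of CD replicate 2 and HFHS replicates 2 and 3; Nid1 without any 1 of CD replicates 1, 2 and 4 and HFHS replicates 2 and 3; Col4a2 without any 1 of CD replicates 1 and 2 and HFHS replicates 2 and 3.

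At the muscle cell membrane, 5 of 19 genes of membrane repair and the dystrophin complex rose and none fell (median 0.08). Dysf, which seals torn membrane, was at 119, 122, 124 and 116 CPM on CD and 145, 170.1, 168 and 168 CPM on HFHS and rose by 0.44 ± 0.06 (adjusted p = 0.000745). Trim72, which forms the repair patch with it, was at 457, 475, 495 and 517 CPM on CD and 523, 627, 613 and 584 CPM on HFHS and rose by 0.27 ± 0.06. Cavin4, the caveolar coat protein of muscle, rose by 0.35 ± 0.07, the dystrophin relative Utrn by 0.25 ± 0.06, and Dag1, dystroglycan, by 0.29 ± 0.07. Without CD replicates 2 and 3 the count was 1 of 19. Calls that ended when 1 library was left out were those of Trim72 without any 1 of CD replicates 1 and 2 and HFHS replicate 2; Utrn without any 1 of CD replicates 2, 3 and 4 and HFHS replicates 2 and 4; Dag1 without any 1 of CD replicates 1, 2 and 3 and HFHS replicates 2, 3 and 4.

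A list of receptors and their regulators, for natriuretic peptides, catecholamines, angiotensin, endothelin and acetylcholine, held 4 risen genes of 21 tested and none that fell (median 0.12), and 1 risen gene without CD replicates 2 and 3. Chrna2 (ENSMUSG00000022041, chromosome 14, 66135039 to 66152948), a nicotinic acetylcholine receptor subunit, had the smallest p of all, at 2.79, 3.49, 3.02 and 2.68 CPM on CD and 8.703, 10.1, 10.2 and 9.26 CPM on HFHS, a rise of 1.67 ± 0.16 (adjusted p = 5.80e-05). Grk5, the kinase that silences adrenergic receptors, was at 47.4, 54.4, 49.7 and 54.3 CPM on CD and 56.4, 80.4, 72.01 and 77.7 CPM on HFHS (0.48 ± 0.09), and Adra1b, an alpha-1 adrenergic receptor, at 43.3, 41.8, 36.1 and 32.7 CPM on CD and 49.7, 50.7, 55.4 and 74.04 CPM on HFHS (0.58 ± 0.14). Ednrb, an endothelin receptor, rose by 0.49 ± 0.11. Scn4b, the beta subunit of the sodium channel, was at 103, 109, 77.5 and 109 CPM on CD and 157, 268, 185 and 175 CPM on HFHS, a rise of 0.98 ± 0.20 (adjusted p = 0.0286). The potassium channel gene Kcnk2 rose by 0.67 ± 0.15. Left out singly, libraries ended the calls of Adra1b without any 1 of CD replicates 1, 2, 3 and 4 and HFHS replicates 2, 3 and 4; Ednrb and Scn4b without any 1 of CD replicates 1, 2 and 3 and HFHS replicates 2 and 3; Kcnk2 without any 1 of CD replicates 1 and 2 and HFHS replicates 2 and 4.

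Muscle-specific transcripts were lower in part. Ckm, the creatine kinase of muscle, was at 2483, 2366, 2449 and 2608 CPM on CD and 1913, 2050.4, 2086 and 1996 CPM on HFHS, the 1 of 11 cardiomyocyte markers that changed (−0.30 ± 0.06, adjusted p = 0.00927), while 9 of the 11 were lower (median −0.13). S100a1, a calcium sensor that promotes contraction, was at 557, 524, 527 and 587 CPM on CD and 473, 467, 433 and 404 CPM on HFHS and fell (−0.31 ± 0.06, adjusted p = 0.00783), the 1 of 19 calcium handling genes that passed. Dhrs7c, a retinol dehydrogenase of the sarcoplasmic reticulum, fell (−0.35 ± 0.06). None of 24 sarcomere genes passed with edgeR (9 at an unadjusted p under 0.05, 4 with DESeq2, 4 with limma-voom), and none of 15 genes of the fetal programme and hypertrophy (2 at an unadjusted p under 0.05, 0 with DESeq2, 0 with limma-voom). Nppa (−1.14 ± 0.44), Nppb (−0.08 ± 0.49) and Myh7 (−0.02 ± 0.48), which rise in cardiac hypertrophy, had SE values of 0.44 to 0.49 and adjusted p of 0.221, 0.954 and 0.991. Nppa is also on the atrial list. It was at 358, 207, 92.2 and 77.8 CPM on CD and 94.02, 85.8, 72.6 and 79.9 CPM on HFHS, highest in CD replicate 1. Without HFHS replicate 1, 1 cardiomyocyte marker rose and 3 fell, 2 calcium handling genes rose and 1 fell, and 2 sarcomere genes rose and 2 fell.

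Further genes of small p rose without belonging to these lists. Tshz1, a zinc finger transcription factor, was at 46.2, 41.99, 43.5 and 44.7 CPM on CD and 63.2, 55.3, 71.4 and 68.2 CPM on HFHS, a rise of 0.55 ± 0.06 (adjusted p = 0.00026). Vwa8, a mitochondrial ATPase-like protein, was at 495, 459.6, 398 and 403 CPM on CD and 609, 679.9, 700.3 and 655 CPM on HFHS, a rise of 0.59 ± 0.08 (adjusted p = 0.00132). Kctd12b rose by 0.76 ± 0.11, the scaffold Akap12 by 0.46 ± 0.07, Lix1l by 0.37 ± 0.06 and Fgf9, a growth factor, by 0.56 ± 0.11. Among falls, Penk, the precursor of enkephalins, was at 8.75, 11.3, 11.9 and 10.5 CPM on CD and 6.59, 4.53, 7.02 and 6.599 CPM on HFHS (−0.79 ± 0.13, adjusted p = 0.00552). Zfyve21 (−0.41 ± 0.06), Fam213a (−0.43 ± 0.07), the sialyltransferase St3gal4 (−0.44 ± 0.08), Leng8 (−0.34 ± 0.06) and Ddt (−0.40 ± 0.08) fell too. Fgf9, Penk and St3gal4 did not pass without CD replicates 2 and 3.

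The largest falls were at low levels. Cilp2, a cartilage matrix protein, was at 4.76, 5.56, 3.33 and 0.614 CPM on CD and 0.132, 0.107, 0.1404 and 0.787 CPM on HFHS (−3.57 ± 0.84, adjusted p = 0.0468), with HFHS replicate 4 above CD replicate 4. Chrdl1, an antagonist of bone morphogenetic proteins, was at 3.49, 4.42, 4.63 and 1.34 CPM on CD and 0.527, 0.8002, 0.1404 and 0.908 CPM on HFHS (−2.49 ± 0.58). Col11a2, a collagen of cartilage, was at 5.33, 7.85, 6.98 and 3.07 CPM on CD and 2.51, 1.44, 1.68 and 1.695 CPM on HFHS (−1.67 ± 0.26), and C7, a complement component, at 32.2, 31.7, 23.7 and 20.8 CPM on CD and 13.1, 9.87, 7.16 and 9.99 CPM on HFHS (−1.43 ± 0.21, adjusted p = 0.00417). The conduction system markers Cpne5, at 5.33, 1.69, 2.34 and 0.782 CPM on CD and 0.264, 0.107, 0.491 and 0.424 CPM on HFHS (−2.98 ± 0.71), and Cacna2d2, at 12.1, 5.73, 5.101 and 2.96 CPM on CD and 2.77, 2.401, 2.25 and 1.695 CPM on HFHS (−1.49 ± 0.35), fell, the 2 of 9 tested conduction markers that changed. Ptgfr, a prostaglandin receptor (−1.32 ± 0.33), and Zfp185 (−1.33 ± 0.24) fell as well. Without CD replicates 2 and 3, C7 still passed, and Cilp2, Chrdl1, Col11a2, Cpne5, Cacna2d2, Ptgfr and Zfp185 did not. No longer past the threshold with 1 library fewer were Cilp2, Chrdl1 and Cpne5 without any 1 of CD replicates 1, 2 and 3 and HFHS replicates 1, 2, 3 and 4; Cacna2d2 without any 1 of CD replicates 2 and 3 and HFHS replicates 2, 3 and 4; Ptgfr without any 1 of CD replicates 1, 3 and 4 and HFHS replicates 1, 2, 3 and 4.

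These falls lie beside markers of other tissue that vary by library. Chad, a cartilage protein, was at 8.94, 30.8, 29.98 and 3.68 CPM on CD and 0, 0, 0 and 1.51 CPM on HFHS (adjusted p = 0.0626). The atrial transcripts Myl4, at 285, 30.6, 26.1 and 9.04 CPM on CD and 3.16, 1.76, 1.75 and 13.4 CPM on HFHS, Sln, at 65.6, 3.16, 4.06 and 1.79 CPM on CD and 0, 0.107, 0 and 2.603 CPM on HFHS, and Mybphl, at 28.2, 1.53, 1.72 and 0.949 CPM on CD and 0.0659, 0.107, 0.0702 and 1.15 CPM on HFHS, were highest in CD replicate 1. The fat cell transcripts Car3, at 8.18, 13.5, 4.997 and 0.447 CPM on CD and 0.989, 0.0533, 0 and 1.33 CPM on HFHS, and Cidec, at 1.52, 2.02, 0.833 and 0.0558 CPM on CD and 0.0659, 0.0533, 0.0702 and 0.242 CPM on HFHS, were highest in CD replicates 1 to 3. Of 12 tested valve and cartilage markers 11 were lower on HFHS and 1 passed (median −2.31), of 13 atrial markers 11 were lower and none passed (median −0.49; 6 at an unadjusted p under 0.05, 2 with DESeq2, 0 with limma-voom), and of 7 adipocyte markers 5 were lower and 1 rose, Cidea (median −2.31). The sum of all 12 adipocyte markers had a median of 533 CPM on CD (507 to 726) and 726 CPM on HFHS (633 to 1031). Most of that sum was Fabp4, which endothelium also expresses, so it mainly follows this gene. Fabp4 was at 486, 472, 466 and 692 CPM on CD and 994, 714, 652 and 588 CPM on HFHS. It did not pass (0.48 ± 0.17, adjusted p = 0.16). Without CD replicates 2 and 3 no valve, conduction or adipocyte marker passed, and without HFHS replicate 1 no valve marker and 1 conduction marker did. With valve and atrial scores as covariates the value of Cilp2 was 0.41. Cilp2 is itself a member of the valve list and so part of that score, and this value is not an independent measure. The groups differed in these scores: in valve score the lowest CD library was at 0.23 and the highest HFHS library at 0.03.

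**Figure D4:**
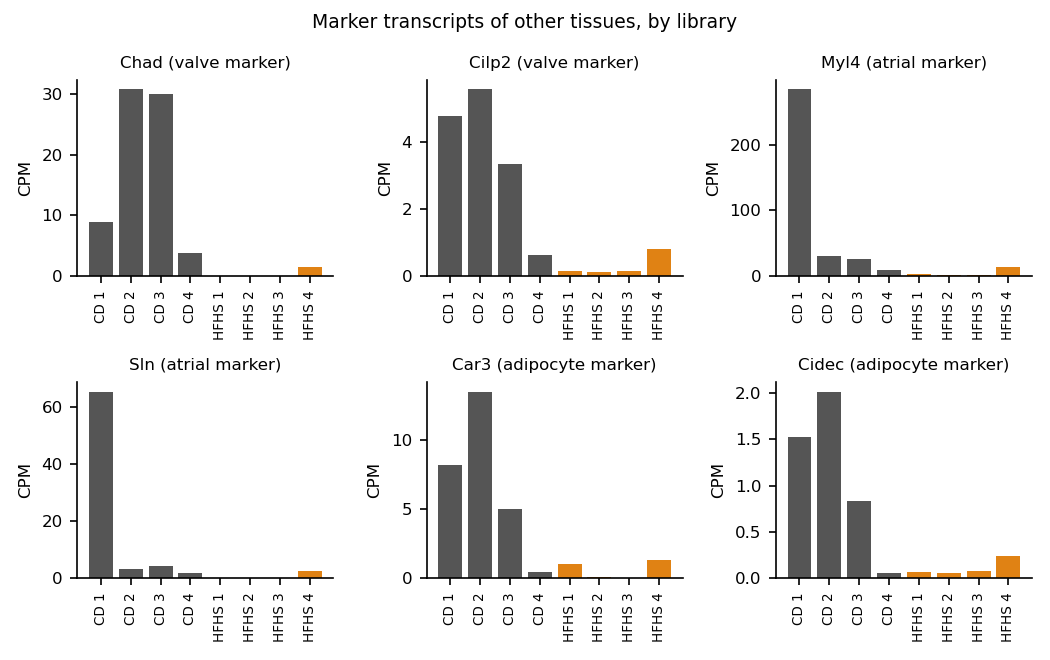
CPM of 2 valve, 2 atrial and 2 adipocyte marker transcripts in each of the 8 libraries (bars from 0, CD grey, HFHS orange; each panel has its own scale). CD replicates 2 and 3 are highest for Chad, CD replicate 1 for Myl4 and Sln, and CD replicate 2 for Car3 and Cidec.

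None of 34 interferon response genes passed with edgeR (1 at an unadjusted p under 0.05), and none of 20 immediate early genes, 19 circadian clock genes and 16 macrophage markers (0 at an unadjusted p under 0.05 in each). DESeq2 and limma-voom called 0 in these 4 lists. None of 25 heat shock genes passed either (4 at an unadjusted p under 0.05, 0 with DESeq2, 1 with limma-voom), while without HFHS replicate 1, 2 rose and 1 fell. Of 24 genes of inflammation and the acute phase 1 rose, Cxcl12. Fbxo21, a ubiquitin ligase subunit, was the 1 of 23 genes of protein breakdown and autophagy that rose (0.36 ± 0.06, adjusted p = 0.00318). Of 5 tested mesothelial and epicardial markers 1 rose, the claudin Cldn15 (0.72 ± 0.18, adjusted p = 0.0441), and 4 were higher on HFHS (median 0.51). The sum of 11 B and plasma cell markers was 12.7 to 16.8 CPM on CD and 18.2 to 21.8 CPM on HFHS, with no overlap. Of the 9 tested 8 were higher on HFHS (median 0.45) and none passed with edgeR (3 at an unadjusted p under 0.05, 0 with DESeq2, 0 with limma-voom). No gene of inflammation or of protein breakdown and no mesothelial marker passed without CD replicates 2 and 3. Cldn15 no longer passed without any 1 of CD replicates 1, 2 and 3 and HFHS replicates 2 and 3.

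The same diet was compared in mice that received ertugliflozin. There 584 genes changed (3.69%). Of the 229 genes that rose without drug 125 also rose there, and of the 98 that fell 43 also fell, with none called in the opposite direction. The comparisons share no libraries, but both come from 1 fit. Chrna2 rose by 1.82 ± 0.15 with drug, Acot2 by 0.88 ± 0.08, Cd36 by 0.37 ± 0.06 and Decr1 by 0.55 ± 0.07, and Oxct1 (−0.45 ± 0.05), Bckdhb (−0.54 ± 0.06) and Abat (−1.54 ± 0.19) fell. Other genes that changed without drug did not pass with it, and for these the difference between the arms did not pass either: Aldh1a2 at 0.20 ± 0.20 (adjusted p = 0.643), Nrp1 at 0.04 ± 0.07 (adjusted p = 0.85), Kdr at 0.21 ± 0.07 (adjusted p = 0.126), Zfp185 at 0.14 ± 0.23 (adjusted p = 0.804) and Cilp2 at −0.20 ± 1.03 (adjusted p = 0.948). The test of the difference between the arms called 3 genes of 15841 (0.0189%), Iigp1, Igtp and Tgtp2, interferon-induced GTPases, and 676 had an unadjusted p under 0.05. Tgtp2 has a near-identical copy, so its count is uncertain. Without drug they did not pass, with log2 fold changes of −0.17 ± 0.12, −0.15 ± 0.12 and −0.17 ± 0.15. With drug they were lower on HFHS, at −1.46 ± 0.12, −1.28 ± 0.12 and −1.55 ± 0.15. The count was 0 when any 1 of CD untreated replicates 1, 2 and 4, HFHS untreated replicates 1, 2 and 4 or HFHS ertugliflozin replicates 2, 3 and 4 was left out; it was 18 without HFHS untreated replicate 3 and 7 without CD ertugliflozin replicate 4. No gene of fat metabolism named above passed that test, which does not show that the diet acted alike in both arms.

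**Figure D5:**
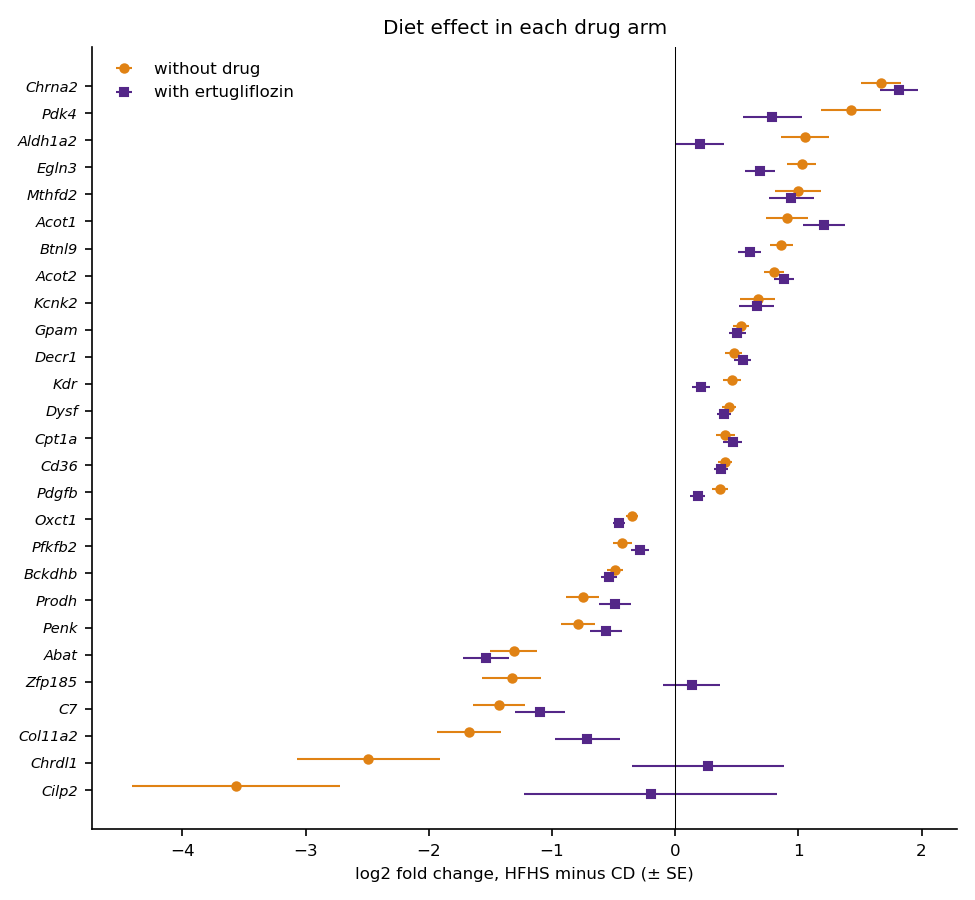
Log2 fold change of HFHS minus CD with its SE for 27 genes, without drug (orange circles) and with ertugliflozin (purple squares), ordered by the value without drug. Chrna2 and Acot2 lie at like values in both arms, and Cilp2, Chrdl1 and Zfp185 are low without drug and near 0 with it.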

How the data were processed

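Libraries were made from left ventricular RNA after poly(A) selection with a kit that marks strand, per the labels' protocols. The authors deposited unnormalized whole read counts of 53764 Ensembl genes and a table of regularized log2 values that served as an alternative input. The submitters' processing notes name STAR 2.6.0c, Subread 1.6.2 with featureCounts, DESeq2 1.22.1, FastQC 0.11.7 and the mm10 build. Not given in the sources used here were the annotation, the strand setting and the treatment of multi-mapping reads. GENCODE M21 (GRCm38) gave symbols for 53583 IDs and the coordinates, and RefSeq (GRCm38.p6) the promoters.

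The counts went into edgeR 4.0.16 under R 4.3.3, with genes kept by filterByExpr over the 4 groups, TMM scaling, 1 robust quasi-likelihood fit of all 16 libraries with a mean per group, and Benjamini-Hochberg adjustment over 15841 genes at 0.05. Each SE was derived from the test, as the absolute log2 fold change over the root of its F. Transcript identity came from local alignment in Biopython 1.88. The members, the 42 pathway and 18 marker lists and the rule for named genes were chosen with earlier results of these data known. The rule took the 20 rises and 20 falls of smallest p and the 10 largest changes each way (means of 1 CPM or more), up to 8 called members of a pathway list or otherwise its 3 of smallest p, the 3 highest of a marker list, and preset genes; the text uses fewer than its 199 genes, and some genes, and the list counts that rest on them, are not reported here. Cpt2, Slc22a5, Acaa2, Acads, Echs1, Fabp3-ps1, Adam23, Ybx2, St6gal1, Iigp1, Igtp, Tgtp2, Chad, Myl4, Sln and Cidec fall outside the rule and were named after their values were seen. The valve and atrial scores are the mean log2 CPM of each marker list in a library, centred over the libraries. Counts of list members without CD replicates 2 and 3 or without HFHS replicate 1 were added after seeing the data. Alternatives used DESeq2 1.42.0, limma 3.58.1 and other settings of edgeR. Libraries of 1 group differed beyond sampling noise (chi-square over degrees of freedom 3.23 to 16.3), so each counted as a replicate. Tested on simulated counts of 15735 genes for diet without drug, the test recovered 87.9% of 66 changes of 2-fold, 64.2% of 67 of 1.5-fold and 15.6% of 64 of 1.25-fold, with 3 false calls. In these counts each gene varied on its own, with no marker transcripts shifting together between libraries. The number of false calls in the real data cannot be read from them.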

Additional observations from a re-analysis of the deposited data

Results flagged for a closer look

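Among the genes named above, a library was singled out where its gap to the nearest other of its group was large against the whole range of the 4 (Dixon's test). This was so in 21 of 230 sets of 4 values, and chance gives about 1 in 20. CD replicate 1 stood above the others for Myl4 (285 CPM against 9.04 to 30.6), Sln (65.6 CPM against 1.79 to 4.06) and Mybphl (28.2 CPM against 0.949 to 1.72). CD replicate 2 stood below the others for Slc5a1 (0.981 CPM against 1.51 to 1.61). CD replicate 4 stood above the others for Plin5 (191 CPM against 156 to 162), Angptl4 (14.7 CPM against 5.93 to 6.98), Fabp4 (692 CPM against 466 to 486), Slc2a1 (23.4 CPM against 16.2 to 16.7) and Txnip (1070.2 CPM against 377 to 488). CD replicate 4 stood below the others for Psat1 (3.57 CPM against 4.42 to 4.57) and Gpat3 (20.5 CPM against 24.2 to 24.7). HFHS replicate 1 stood below the others for Dysf (145 CPM against 168 to 170.1). HFHS replicate 2 stood above the others for Utrn (202 CPM against 186 to 188). HFHS replicate 2 stood below the others for Eno3 (972 CPM against 1154 to 1168). HFHS replicate 4 stood above the others for Cilp2 (0.787 CPM against 0.107 to 0.1404), Chad (1.51 CPM against 0 in each), Myl4 (13.4 CPM against 1.75 to 3.16), Sln (2.603 CPM against 0 to 0.107), Mybphl (1.15 CPM against 0.0659 to 0.107) and Cidec (0.242 CPM against 0.0533 to 0.0702). HFHS replicate 4 stood below the others for Slc5a1 (0.303 CPM against 0.772 to 0.8002).

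The diet effect differed between the drug arms, by the edgeR test of the difference, for Iigp1 (1.29 ± 0.17, adjusted p = 0.0219), Igtp (1.13 ± 0.17, adjusted p = 0.0219) and Tgtp2 (1.38 ± 0.22, adjusted p = 0.0219), each given as the log2 fold change without drug minus that with drug, with its SE.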

How the results depend on the processing

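The count of 327 genes for diet without drug, 229 higher and 98 lower, was 607 (390 and 217) with DESeq2, 743 (491 and 252) with limma-voom and sample weights, and 136 (100 and 36) in a fit of only the 8 libraries compared. With valve and atrial scores as covariates it was 9 (6 and 3), and without CD untreated libraries 2 and 3, which had the most valve transcripts, 97 (58 and 39). Leaving out single libraries gave 133 to 846 genes, 101 to 538 higher and 31 to 308 lower. RLE and upper-quartile scaling, no filter, a stricter filter of 1 CPM and the deposited log2 values gave 289 to 348. The cause of these shifts was not tested. Same-numbered libraries of the diets correlated at 0.054, 0.127, −0.186 and −0.240 in their deviations, and the samples were not treated as paired. Over all groups 24 same-numbered pairs ran from −0.24 to 0.31, and such values cannot exclude a pairing. With the replicate block 329 genes passed, 259 of them among the 327.

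The count of 3 genes whose diet effect differed between arms was 19 with DESeq2, 6 without a filter, 0 with the scores as covariates, 0 without CD untreated libraries 2 and 3, and 0 to 18 leaving out single libraries.

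With the scores as covariates the sign turned for Cilp2 (0.41), Mybphl (0.24), Myh7 (0.91), Myl4 (0.11), Sln (0.53) and Igtp (0.0928). Cilp2 is part of the valve score, and Mybphl, Myl4 and Sln are part of the atrial score. Their own values thus enter the covariates, and their turned signs are not independent of the scores. Without CD untreated libraries 2 and 3 the sign turned for Nppb (0.44), Myh7 (0.52) and Tgtp2 (0.0334). Leaving out single libraries gave −0.42 to 0.18 for Nppb and −0.54 to 0.22 for Myh7.
Of 64 changes of 1.25-fold in the simulated counts 15.6% were recovered, and smaller changes were not tested there. In the data some calls were smaller than 1.25-fold, such as those of Acat1 (1.17-fold) and Acadsb (1.16-fold). The lower quartile of size among the 327 genes was 0.26 on the log2 scale.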
